A study of Mus musculus with 3 samples.

Results

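Duct cells were compared with acinar cells of the inflamed mouse pancreas, with 1 Agilent 1-colour array for each. A probe entered when the scanner's flag put its signal well above background in duct, in acinar or in both. By this rule 30173 of 55664 probes were members: 20330 passed on both arrays, 7519 on the duct array only and 2324 on the acinar array only. Through their accessions 17664 of these probes carried the symbol of 1 gene. By its brightest probe, 13826 of 21150 genes named on the array could be compared.

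The cells came from frozen pancreas of 3 wild-type mice given caerulein pancreatitis 48 h before collection, and were cut out by laser microdissection. Caerulein is a peptide that overstimulates acinar cells and so inflames the gland. The duct group is 1 array of ductal cells and the acinar group is 1 array of acinar cells, and all mice were of the same genotype and treatment. The sources used here give neither the age, sex and strain of the mice, nor how the cells were recognised, nor how many mice contributed to each array. With 1 array a group there is no replicate check and no test, so values are described across gene families and across different probes of a gene. Fewer cells of a type and less RNA per cell cannot be told apart in such bulk samples. The other array of the series, labelled ADM, served here only in choosing probes. It entered the choice of each gene's brightest probe, the removal of outlier probes and an alternative filter on all 3 arrays.

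Acinar cells make and store digestive enzymes as inactive zymogens and release them when secretagogues raise calcium. Their secretory line runs from the signal recognition particle through the translocon, chaperones and glycan transfer of the endoplasmic reticulum (ER) to COPII vesicles, the Golgi and the zymogen granule. Duct cells form the tubes that carry this juice and add bicarbonate and water to it through ion channels, exchangers and aquaporins, and they carry a primary cilium and tight junctions.

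A level is the log2 processed signal of a probe minus its array's 75th percentile, so 0 is that percentile, and a difference is duct minus acinar in log2 units. Levels of different probes are not compared with each other. Where 1 array was not well above background, the other is given as at least a number of times higher, measured against the higher of the dim probe's own level and the lowest level well above background on that array (−3.28 in duct, −2.04 in acinar). Of the genes compared, 3791 (27.4%) were higher in duct by at least 2-fold and 3398 (24.6%) higher in acinar. The median difference was 0.00, with 3921 genes entering as bounds and any bound that crossed 0 set to 0. Over the 9905 genes free of bounds it was −0.17. A gene is called higher or lower from here on when it passed 2-fold. Where a gene had several probes compared (3195 genes), 351 (11.0%) passed 2-fold towards duct on every probe, 353 (11.0%) towards acinar on every probe, and 340 (10.6%) had probes that passed it in opposite directions. Of the genes past 2-fold, 52.7% were higher in duct, against 64.7% when arrays were scaled to their medians. That scaling moved the median of all genes, bounds included, to 0.28. Among the largest differences, over 64-fold, 79 genes were higher in acinar and 14 in duct. The acinar array was the dimmer, with 22654 of 55664 probes well above background against 27849 in duct, and a 75th percentile of 35.2 against 95.7 intensity units.

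**Figure D1:**
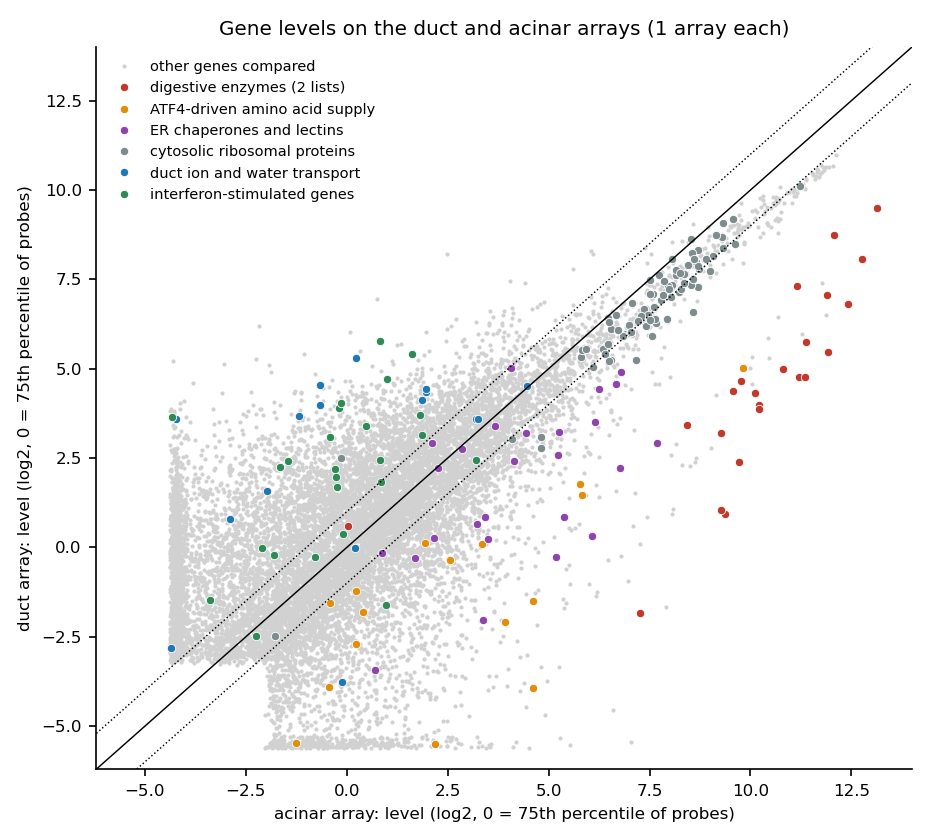
Level of each compared gene on the acinar array (x axis) and the duct array (y axis), both in log2 units with 0 at the array's 75th percentile, with 1 array a group. The solid line marks equal levels and the dotted lines 2-fold, coloured points are members of 6 groups of genes, and 22 of 23 digestive enzymes lie below the lower dotted line while duct ion transport genes lie mostly above the upper one.

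The labels were first set against markers of the cell types. All 10 acinar markers were higher in acinar, among them the cholecystokinin receptor Cckar, which had a level of 5.53 in acinar and was not well above background in duct (at least 447-fold). All 9 duct markers compared were higher in duct, and Sox9, a duct transcription factor, had a level of 3.12 in duct and 1.43 in acinar (3.24-fold). Cftr, the chloride channel that defines duct secretion, was not well above background on either array, and the duct keratin Krt7 had a level of −0.35 in duct and was not well above background in acinar (at least 3.24-fold). Acinar markers stayed measurable in the duct array, where 9 of 10 were well above background and their summed level was 1320 times the 75th percentile, against 19300 in acinar. Of the duct markers 7 of 9 were well above background in acinar, with summed levels of 110.0 in duct and 21.4 in acinar. The 2-fold difference was lost for Krt7 with normexp background correction.

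Markers of cells other than the labelled ones were measurable on both arrays. Of the markers of fibroblasts and stellate cells 16 of 22 were higher in duct and 2 in acinar, and their summed level was 442 in duct and 134 in acinar. Of these markers 21 were well above background in duct and 19 in acinar. The collagen chain Col1a2 had a level of 6.28 in duct and 3.51 in acinar (6.82-fold). Endothelial markers were well above background in 11 of 11 genes in duct and in 5 in acinar, with 5 higher in duct and a median difference of 0.73 that turned negative on the second-brightest probes. Macrophage markers differed little on balance, with 3 of 17 higher in duct, 6 higher in acinar, a median of −0.12 that turned positive with normexp and with median scaling, and summed levels of 113 and 135. Of 7 adipocyte markers compared, 5 were higher in acinar, with Fabp4 at −0.31 in duct and 2.66 in acinar (7.85-fold). Plin4 alone passed 2-fold towards duct (at least 8.16-fold). The adipocyte markers Adipoq, Lep and Cidec could not be compared, as neither array had them well above background. Islet markers were higher in duct in 8 of 19 and in acinar in 1. Insulin (Ins2) had a level of 8.36 in duct and 8.80 in acinar (1.35-fold), glucagon (Gcg) had a level of 5.48 in duct and 4.74 in acinar (1.67-fold), and pancreatic polypeptide (Ppy) had a level of 2.76 in duct and −1.19 in acinar (15.4-fold). Neutrophil markers were compared in 2 of 11 genes and lymphocyte markers in 7 of 13, the rest being not well above background on either array. With normexp background correction the counts higher in duct and in acinar became 3 and 0 for endothelial markers (median 0.00), 6 and 2 for macrophage and monocyte markers (median 0.44) and 1 and 3 for adipocyte markers (median −0.64). With median scaling they were 4 and 3 for macrophage and monocyte markers (median 0.27) and 1 and 3 for adipocyte markers (median −0.76).

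**Figure D2:**
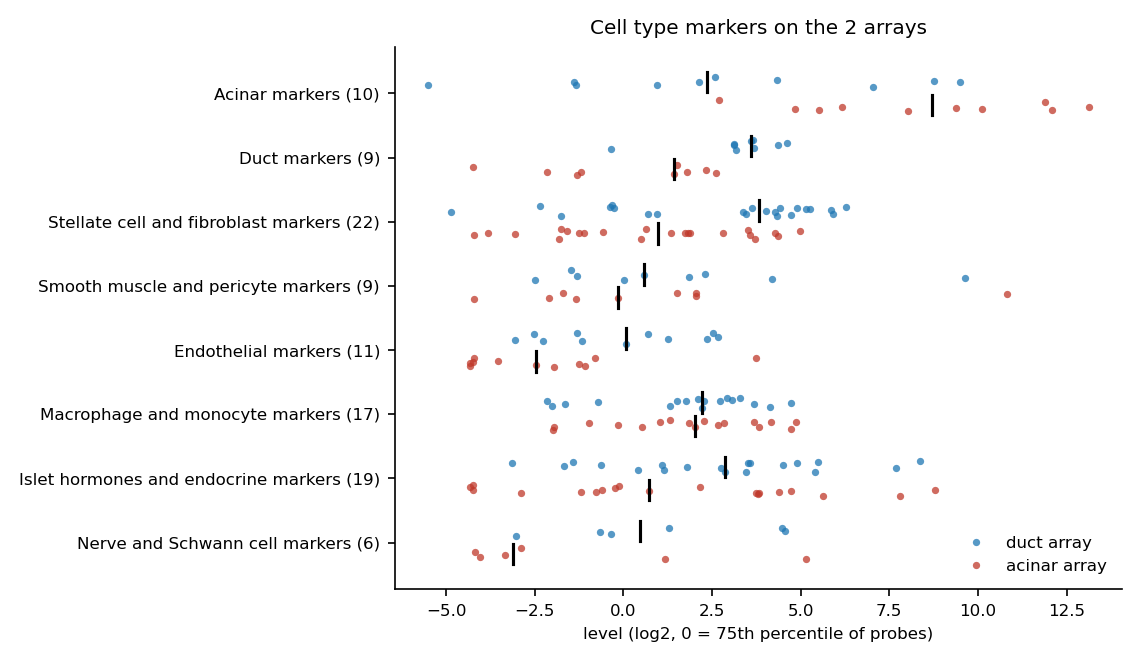
Levels (x axis, log2 units, 0 at the array's 75th percentile) of marker genes of 8 cell types on the duct array (blue) and the acinar array (red), 1 point a gene, with the number of genes compared in brackets and a black bar at each median. The acinar median falls from 8.70 in acinar to 2.35 in duct, while fibroblast markers have medians of 3.82 in duct and 0.98 in acinar and macrophage markers of 2.22 and 2.03.

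Among acinar products, the proteases and their zymogens gave 13 of 13 genes higher in acinar, with differences from −8.43 for the elastase Cela1 to −3.62 for the chymotrypsinogen Ctrb1. Promoters of this family are shown because several hold both parts of the site of PTF1, the acinar factor made of Ptf1a, an E protein and Rbpjl. In the 250 bases before the RefSeq start (GRCm38.p6), the E-box CACCTG was found on either strand in 9 of 11 protease windows, which is 81.8% against 17.2% of all 32841 windows, and the TC-box TTTCCC in 7 of 11 (63.6% against 22%). Both were found in 5 of 11 (45.5% against 3.61%), and in 1 of 11 windows of the lipase, amylase and nuclease list. That list held the E-box in 2 of 11 windows (18.2%) and the TC-box in 1 of 11 (9.09%). Windows of zymogen granule genes held them in 3 of 7 and 0 of 7. Over windows of all genes higher in acinar the shares were 16.8% and 23.5%, and of those higher in duct 16.2% and 22.4%. The windows of Cela1 at chr15:100687921-100688070 (minus strand) and of the trypsinogen Prss1 at chr6:41458730-41458929 (plus strand) end at the base before the start, with E-boxes and TC-boxes of either strand in capitals.
Cela1: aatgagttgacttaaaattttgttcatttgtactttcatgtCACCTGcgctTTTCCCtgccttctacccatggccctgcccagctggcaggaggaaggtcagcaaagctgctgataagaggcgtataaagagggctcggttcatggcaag
Prss1: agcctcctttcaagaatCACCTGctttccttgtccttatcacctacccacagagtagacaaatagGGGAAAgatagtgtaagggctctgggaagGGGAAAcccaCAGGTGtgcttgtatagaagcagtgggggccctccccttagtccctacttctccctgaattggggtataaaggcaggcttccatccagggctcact
In Cela1 the E-box begins at position −109 from the start and the TC-box at −99, and in Prss1 the pair begins at −96 and −106 on the opposite strand, beside a further E-box at −183 and a further TC-box at −135. Such a match is a description of letters and not a measured binding site.

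The enzymes of these promoters had levels of 0.95 in duct and 9.38 in acinar (346-fold) for Cela1 and levels of 4.67 in duct and 9.77 in acinar (34.3-fold) for Prss1. Both probes of Prss1 and both of the elastase Cela3a were higher in acinar. Of the lipases, amylases and nucleases 9 of 10 were higher in acinar. The lipase relative Pnliprp2 had a level of −1.83 in duct and 7.27 in acinar (550.4-fold). Dnase1, a nuclease, differed by 0.57 and was the exception. Probes of trypsins, elastases and amylases can bind more than 1 member of their family, so members of a family are not independent. Proteases held 0.606% of the summed signal of named genes in duct and 8.53% in acinar, and lipases, amylases and nucleases 0.492% and 5.18%.

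Zymogen granule proteins followed, with 8 of 10 higher in acinar. Cuzd1, a protein of the granule membrane, had a level of 7.04 in acinar and was not well above background in duct (at least 1275-fold). Gp2, the main granule membrane glycoprotein, had a level of 2.57 in duct and 8.03 in acinar (43.9-fold), and Erp27, an ER protein of the pancreas, had a level of 1.08 in duct and 8.08 in acinar (128-fold). All 3 genes of this list with several probes, Gp2, Tmed6 and Pdia2, were higher in acinar on every probe. Of these, Tmed6 is counted again among the Tmed cargo receptors. Muc1, an apical mucin shared with ducts, was 4.02-fold higher in duct. The machinery of granule release did not follow as a group: 4 of 14 genes were higher in acinar and 4 higher in duct. The granule GTPase Rab3d had a level of 0.58 in duct and 4.21 in acinar (12.3-fold) on its brightest probe, and its relative Rab27a had a level of 1.75 in acinar and was not well above background in duct (at least 32.5-fold). Rab27b and the syntaxin Stx4a were higher in duct, 2.48-fold and 12.2-fold, on every probe compared. Receptors and calcium signalling genes also parted: beside Cckar, the calcium pump of the ER Atp2a2 had a level of −0.89 in duct and 2.7 in acinar (12.1-fold) on its brightest probe and a difference of 0.77 on its other probe, whereas the calcium release channel Itpr3 had a level of 3.77 in duct and 0.65 in acinar (8.69-fold) and the receptor Vipr1 was 3.77-fold higher in duct. Acinar transcription factors were higher in acinar in 8 of 13 and in duct in 0, with a median of −2.71 that went to 0.00 on the second-brightest probes, which 3 of them had. Bhlha15 (Mist1), which builds the secretory apparatus, had a level of 2.13 in duct and 4.84 in acinar (6.53-fold), and Nr0b2 had a level of −2.19 in duct and 2.16 in acinar (20.4-fold). The PTF1 partners Tcf3 and Tcf12, which many cell types express, differed by −0.71 and −0.29, although a further probe of Tcf3 gave 3.2. Normexp background correction gave duct and acinar counts of 3 and 2 for the exocytosis machinery (median 0.11). Under alternative settings, the 2-fold difference was lost for Atp2a2 on the second-brightest probe.

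The steps of the secretory line were then taken in order, over 155 compared genes, of which 84 (54.2%) were higher in acinar and 12 (7.74%) in duct. Of the signal recognition particle and its receptor, which dock ribosomes at the ER, 5 of 8 were higher in acinar (median −1.61), with the receptor subunit Srprb at −2.99 in duct and 2.26 in acinar (37.9-fold). Of the translocon and signal peptidase 11 of 17 were higher in acinar and 0 in duct (median −1.86). The signal peptidase subunit Sec11c had a level of −1.48 in duct and 3.15 in acinar (24.8-fold), the channel subunit Sec61b had a level of 3.54 in duct and 6.21 in acinar (6.36-fold), and Sec61a1, the pore itself, differed by −0.75. Spcs2 and Spcs3 of the peptidase, Sec61b and Ssr3 were higher in acinar on every probe. Glycan synthesis did not move as 1 group. The transferase subunit Ostc was 26.4-fold higher in acinar. Mannosyltransferases that build the lipid-linked glycan split: Alg2 and Alg9 were at least 21.0-fold and 16.1-fold higher in duct. Alg12 and Alg3 were at least 12.1-fold and 5.49-fold higher in acinar. The median of −0.46 for glycan synthesis rests on 9 genes higher in acinar and 5 in duct of 25. The counts in duct and acinar moved with normexp to 1 and 3 for the signal recognition particle (median −0.82) and 4 and 5 for oligosaccharyltransferase and glycan synthesis (median 0.00). Median scaling gave duct and acinar counts of 3 and 10 for the translocon and signal peptidase (median −1.47). A difference under 2-fold was obtained for Ssr3 with normexp background correction, and Ssr3 with median scaling.

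Chaperones and lectins of the ER, which fold cargo and form its disulphide bonds, were higher in acinar in 21 of 26 and in duct in 0 (median −2.05). The largest differences lay in Fkbp2 (−5.75), Ero1b (−5.44) and Fkbp11 (−5.40), a pair of prolyl isomerases and a pancreas-rich oxidase. The abundant chaperone Hspa5 (BiP) had a level of 4.58 in duct and 6.68 in acinar (4.28-fold) and Hsp90b1 was 3.56-fold higher in acinar. The disulphide isomerases Pdia3 and Txndc5 differed by −0.28 and −0.03, and the lectin Canx by 0.96. The ER stress element, which is CCAAT followed after 9 bases by CCACG and through which ATF6 and XBP1 act on such genes, was found on either strand in 8 of 30 chaperone windows (26.7%), against 0.113% of all windows. The 8 genes were Hspa5, Calr, Hsp90b1, Canx, Pdia6, Ero1b, Dnajc3 and Creld2. Windows of ER-associated degradation held the element in 2 of 14, and those of the translocon and signal peptidase in 0 of 12. Over windows of all genes higher in acinar the share was 0.295%, and of those higher in duct 0.0510%. Windows of Hspa5 at chr2:34771990-34772089 (plus strand), Pdia6 at chr12:17266469-17266588 (plus strand) and Creld2 at chr15:88819496-88819645 (plus strand) are printed, with the element in capitals, since Hspa5 and Pdia6 lay near the list's median and Creld2 lay beyond it.
Hspa5: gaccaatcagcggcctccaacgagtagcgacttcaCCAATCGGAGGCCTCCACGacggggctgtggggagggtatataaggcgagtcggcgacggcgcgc
Pdia6: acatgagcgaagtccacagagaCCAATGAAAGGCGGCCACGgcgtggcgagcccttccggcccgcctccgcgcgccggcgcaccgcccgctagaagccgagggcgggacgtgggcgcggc
Creld2: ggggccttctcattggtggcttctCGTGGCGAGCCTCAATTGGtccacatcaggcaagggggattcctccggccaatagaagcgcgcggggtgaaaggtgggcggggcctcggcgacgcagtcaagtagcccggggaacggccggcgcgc
Creld2, an ER protein induced by unfolded cargo, had a level of 0.85 in duct and 5.39 in acinar (23.3-fold) and Pdia6 had a level of 3.24 in duct and 5.25 in acinar (4.03-fold). Canx holds the element too and was not higher in acinar, so genes with the letters spanned differences from −5.44 to 0.96. Among the named genes, the value came under 2-fold for Calr with normexp background correction, and Calr with median scaling.

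Degradation of cargo and its transport out of the ER came next. For ER-associated degradation, 8 of 17 genes were higher in acinar and 0 in duct (median −0.86), led by Edem2 and Derl3, which were well above background in acinar only (at least 114-fold and at least 67.8-fold). Sel1l, the scaffold of the retrotranslocation complex, had a level of 0.54 in duct and 5.66 in acinar (34.9-fold), while its ligase Syvn1 differed by −0.79. Of the sensors and factors of the unfolded protein response 6 of 13 were higher in acinar and 2 in duct (median −0.86). Ern1 (IRE1) was 15.4-fold higher in acinar and Eif2ak3 (PERK) differed by −0.86. Higher in duct were Ddit3, at least 3.76-fold, and Mbtps1, 3.55-fold on its brightest probe. Of the COPII coat and its cargo receptors 9 of 19 were higher in acinar and 4 in duct. The cargo receptors Lman1 and Lman2 were 4.08-fold and 7.99-fold higher in acinar on every probe, and the coat subunits Sec13 and Sec23b 13.6-fold and 5.02-fold. Other coat subunits did not follow: Sec24b had a level of 0.92 in duct and was not well above background in acinar (at least 7.80-fold), and Sec23a differed by 0.88. For the COPI coat the count was 9 of 20 with 0 higher in duct, and Copz2 had a level of 1.68 in duct and 5.02 in acinar (10.2-fold) beside 0.03 for its paralogue Copz1. Among Tmed cargo receptors (6 of 10 higher in acinar) Tmed6 had a level of 0.35 in duct and 6.01 in acinar (50.8-fold), Tmed2 was 3.81-fold higher in acinar and Tmed1 3.60-fold higher in duct. Under normexp the numbers higher in duct and in acinar were 3 and 5 for the COPI coat (median 0.20) and 1 and 3 for Tmed cargo receptors (median −0.65). For the unfolded protein response they were 1 and 2 (median −0.49).

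**Figure D3:**
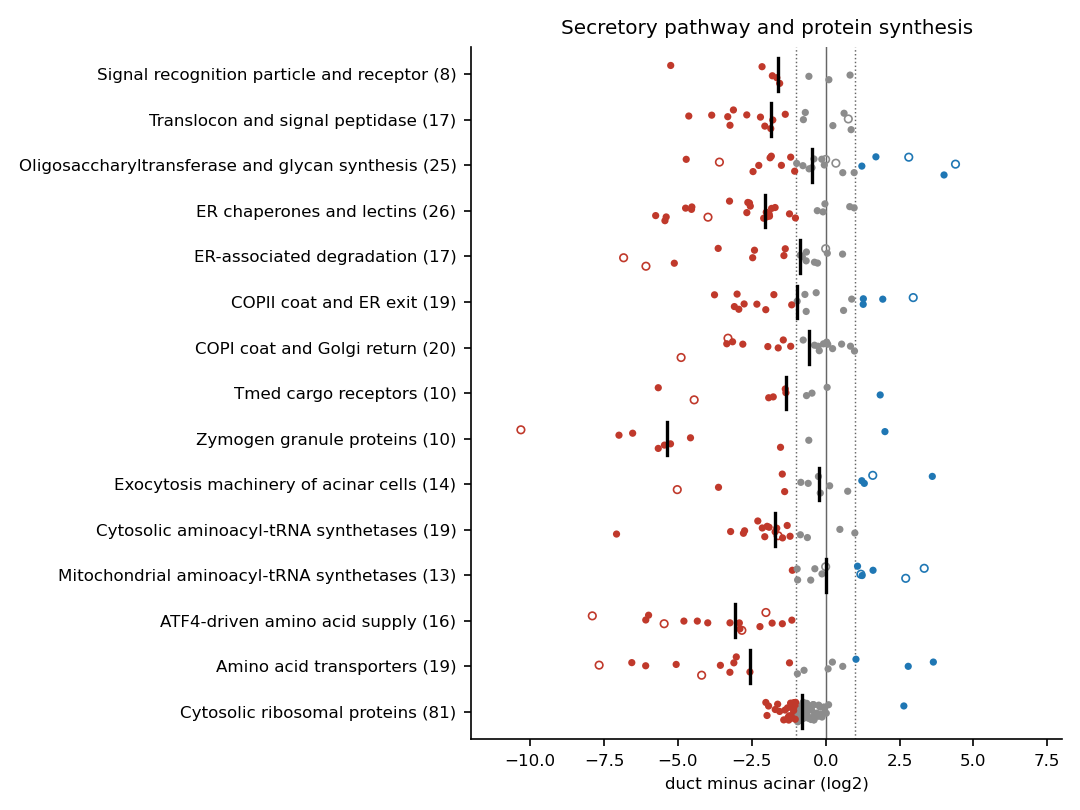
Difference of each gene between the arrays (x axis, duct minus acinar, log2 units) in 15 lists of the secretory line and of protein synthesis, 1 point a gene and 1 array a group, with the number of genes compared in brackets and a black bar at the median. Red points are at least 2-fold higher in acinar, blue points at least 2-fold higher in duct, grey points within 2-fold (dotted lines), and open points are bounds; 16 of 16 genes of ATF4-driven amino acid supply are red, whereas mitochondrial tRNA synthetases have a median of 0.00.

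Enzymes that charge transfer RNA had different counts by compartment. Of the cytosolic synthetases 15 of 19 were higher in acinar and 0 in duct (median −1.71), and of the mitochondrial ones 1 of 13 were higher in acinar and 6 in duct (median 0.00). The mitochondrial ones were dim, with median levels of −0.58 in duct and −1.08 in acinar, and 4 of them were bounds. Of their 3 genes with several probes, 0 passed 2-fold the same way on every probe. Wars, which charges tryptophan, had a level of −1.71 in duct and 5.37 in acinar (135-fold) and was higher in acinar on every probe. Sars, for serine, had a level of 1.03 in duct and 3.33 in acinar (4.91-fold), and its mitochondrial counterpart Sars2 differed by −0.51. For phenylalanine the cytosolic subunit Farsb was 6.70-fold higher in acinar and the mitochondrial Fars2 3.04-fold higher in duct. The 4 cytosolic genes within 2-fold were Lars (0.48), Qars (0.99), Tars (−0.86) and Farsa (−0.62). Of the translation factors 10 of 27 were higher in acinar and 1 in duct, with the elongation factor Eef1g 3.97-fold higher in acinar on every probe and the exchange factor subunits Eif2b5 and Eif2b2 apart, 6.47-fold higher in acinar and 3.26-fold higher in duct. After normexp background correction, duct and acinar counts were 1 and 9 for cytosolic aminoacyl-tRNA synthetases (median −0.99) and 2 and 4 for translation initiation and elongation factors (median −0.24).

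A list of genes driven by the stress factor ATF4, named for amino acid supply, had 16 of 16 higher in acinar (median −3.08). All 5 of them with several probes were higher in acinar on every probe. The list also holds Chac1, Nupr1 and Vldlr, and its members were chosen with earlier results of these data known. Atf4 itself and Ddit3 stood in the list of the unfolded protein response. Atf4 was 2.81-fold higher in acinar and Ddit3 at least 3.76-fold higher in duct. The serine pathway took part at each of its 3 steps: Phgdh had a level of −1.49 in duct and 4.60 in acinar (68.1-fold), Psat1 had a level of −2.08 in duct and 3.91 in acinar (63.7-fold) and Psph had a level of 0.10 in duct and 3.34 in acinar (9.44-fold). Of the mitochondrial folate enzymes, Mthfd2 had a level of 4.62 in acinar and was not well above background in duct (at least 239-fold), Aldh1l2 had a level of 0.13 in duct and 1.94 in acinar (3.51-fold) and Mthfd1l was not well above background on either array. Asns, which makes asparagine, had a level of 1.48 in duct and 5.82 in acinar (20.3-fold), and Nupr1, a stress-induced chromatin protein first found in pancreatitis, had a level of 5.01 in duct and 9.81 in acinar (27.8-fold). The C/EBP-ATF response element TGATGNAAN was found on either strand in 4 of 17 windows of this list (23.5%), in 3 of 13 of the cytosolic synthetases (23.1%) and in 3.43% of all windows. The 4 genes were Chac1, Asns, Nupr1 and Vldlr, and the synthetases were Gars, Aars and Tars. The window of Nupr1 at chr7:126625471-126625600 (minus strand) is shown with the element in capitals, here on the opposite strand and beginning at −111.
Nupr1: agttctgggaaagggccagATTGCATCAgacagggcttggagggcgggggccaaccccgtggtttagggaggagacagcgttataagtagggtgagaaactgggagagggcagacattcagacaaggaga
Chac1, which degrades glutathione, had a level of 2.19 in acinar and was not well above background in duct (at least 44.2-fold). Single genes that fell under 2-fold were Aldh1l2 and Aars with normexp background correction.

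Carriers that bring amino acids into the cell were higher in acinar in 11 of 19 and in duct in 3 (median −2.56). Both chains of the large neutral amino acid exchanger were among them, Slc7a5 with a level of −1.02 in duct and 5.54 in acinar (94.5-fold) and Slc3a2 with a level of 3.56 in duct and 6.59 in acinar (8.14-fold). The glutamine carriers Slc38a5 and Slc38a3 were at least 203-fold and 68.2-fold higher in acinar, and the glycine carrier Slc6a9 was 5.91-fold higher on its brightest probe and at least 2-fold higher on the other. The taurine carrier Slc6a6 went the other way, with a level of 4.07 in duct and 0.43 in acinar (12.5-fold). Creatine synthesis and methyl group supply split by gene. Gatm and Gamt, the 2 enzymes of creatine synthesis, had levels of −3.0 in duct and 4.46 in acinar (176-fold) and 1.47 in duct and 5.94 in acinar (22.2-fold). Gnmt and Ahcy, which use and recycle the methyl donor, were 127-fold and 173-fold higher in acinar, while Mat2a and Mtr differed by 0.35 and 0.06 on their brightest probes and by −5.53 and 1.5 on others. The creatine carrier Slc6a8 was the reverse of the synthesis enzymes, with a level of 3.24 in duct and −0.59 in acinar (14.3-fold).

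Of the cytosolic ribosomal proteins 26 of 81 were higher in acinar and 1 in duct, with a median of −0.80. Among all genes, the 419 with a mean level over 64 times the 75th percentile had a median of −0.79, with 35.6% higher in acinar and 1.19% in duct, and genes 4 to 16 times that percentile had a median of 0.18. The signal share of ribosomal proteins was 6.77% in duct and 5.74% in acinar. Near-identical copies of these genes can share probes. Mitochondrial ribosomal proteins were split, 18 of 76 higher in acinar and 11 in duct, and their median of −0.26 turned positive with normexp and with median scaling. Mrpl15 had a level of −1.03 in duct and 2.29 in acinar (9.97-fold) and Mrpl35 had a level of 2.02 in duct and was not well above background in acinar (at least 16.8-fold). For the respiratory chain the counts were 13 of 37 NADH dehydrogenase subunits higher in acinar and 2 in duct, 7 of 21 and 0 for cytochrome c reductase and oxidase, and 4 of 17 and 0 for ATP synthase. The median differences were −0.69, −0.57 and −0.77. The shares higher in acinar were 35.1%, 33.3% and 23.5%, and 23.7% for mitochondrial ribosomal proteins, beside 24.6% of all genes compared. In duct these shares were 5.41%, 0.0%, 0.0% and 14.5%, beside 27.4% of all genes compared. Uqcrq, a reductase subunit, had a level of 4.31 in duct and 6.49 in acinar (4.54-fold), with both probes at least 2-fold higher in acinar. With normexp background correction the counts higher in duct and in acinar became 1 and 2 for cytosolic ribosomal proteins (median −0.14), 13 and 7 for mitochondrial ribosomal proteins (median 0.21), 2 and 4 for NADH dehydrogenase subunits (median 0.00), 2 and 2 for cytochrome c reductase and oxidase subunits (median 0.01) and 1 and 2 for mitochondrial ATP synthase subunits (median −0.19). Duct and acinar counts with median scaling were 1 and 7 for cytosolic ribosomal proteins (median −0.42), 15 and 11 for mitochondrial ribosomal proteins (median 0.13), 1 and 2 for cytochrome c reductase and oxidase subunits (median −0.18) and 1 and 2 for mitochondrial ATP synthase subunits (median −0.39).

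In sugar metabolism, isoforms of hexokinase differed in opposite directions. Hk1 had a level of 3.80 in duct and −1.81 in acinar (48.9-fold), with both probes higher in duct, and Hk2 had a level of −1.56 in duct and 1.57 in acinar (8.79-fold). Of 20 glycolytic genes 8 were higher in duct and 5 in acinar, with Gpi1 2.80-fold higher in duct on every probe and Pgk1 5.56-fold higher in acinar. G6pdx, which opens the pentose phosphate pathway, had a level of 3.66 in duct and −1.09 in acinar (26.8-fold), the transketolase Tkt was 3.41-fold higher, and the malic enzyme Me1 had a level of 3.92 in duct and −0.69 in acinar (24.5-fold) with all 3 probes at least 23.2-fold higher. Nqo1, a quinone reductase under NRF2, had a level of 0.91 in duct and was not well above background in acinar (at least 7.74-fold). Glutathione synthesis by Gclc was 3.71-fold higher in duct, but Txnrd1 and Srxn1, further NRF2 targets, differed by −0.11 and −0.51, and the list of NRF2 targets had 8 of 19 higher in duct, 2 higher in acinar and a median of 0.10 whose sign changed under 6 of the alternatives. Normexp background correction gave duct and acinar counts of 7 and 2 for glycolysis (median 0.64). Scaled to medians, the arrays gave duct and acinar counts of 9 and 3 for glycolysis (median 0.64).

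Glutathione transferases, which couple glutathione to toxic compounds, had members higher in each group. Of the 18 compared, 10 were higher in acinar and 5 in duct. The acinar ones were mostly of the mu and pi classes, in which Gstm5 alone lay within 2-fold (−0.96). Gstm2 had a level of 3.26 in duct and 5.31 in acinar (4.16-fold), Gstm3 had a level of 0.54 in duct and 2.72 in acinar (4.54-fold) and Gstp1 had a level of 3.31 in duct and 5.48 in acinar (4.50-fold). Every probe of Gstm1, Gstm2, Gstm3, Gstm6, Gstm7, Gstp1 and Gstp2 was higher in acinar, though members of a class are similar enough to share probes. The alpha, theta and microsomal enzymes Gsta3, Gstt1 and Mgst1 went the other way, while another theta enzyme, Gstt2, was 2.83-fold higher in acinar. Gsta3 had a level of 7.79 in duct and 5.59 in acinar (4.57-fold), Gstt1 had a level of 6.55 in duct and 4.11 in acinar (5.45-fold) and Mgst1 had a level of 3.80 in duct and 1.70 in acinar (4.29-fold), and both probes of Gsta3 and of Mgst1 were higher in duct. Among P450 enzymes, most of which were not well above background on either array (34 of 90 compared), Cyp2s1 had a level of 3.38 in duct and was not well above background in acinar (at least 43.0-fold). In cholesterol and fatty acid synthesis 8 genes were higher in each group of 19. The farnesyl synthase Fdps had a level of −0.57 in duct and 2.60 in acinar (8.98-fold) and the elongase Elovl6 had a level of 1.79 in duct and was not well above background in acinar (at least 14.2-fold). The counts in duct and acinar moved with normexp to 4 and 5 for cytosolic glutathione transferases (median −0.62) and 6 and 1 for cholesterol and fatty acid synthesis (median 0.00). With median scaling they were 8 and 5 for cholesterol and fatty acid synthesis (median 0.05). The 2-fold difference was lost for Gstm1, Gstm6, Gstm7 and Gstt2 with normexp background correction, and Gstm1 with median scaling.

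Many genes of the cell cycle were higher in acinar. For entry into and passage through S phase, 18 of 33 were higher in acinar and 1 in duct (median −1.57), and for mitosis 13 of 19 and 0 (median −2.36). A further 12 of 31 mitotic genes on the array, among them Top2a, Ccnb1 and Aurkb, were not well above background on either array. Rrm2, a subunit of the reductase that makes deoxynucleotides, had a level of −0.47 in duct and 3.73 in acinar (18.3-fold), the inhibitor of apoptosis and mitotic regulator Birc5 had a level of −0.57 in duct and 4.30 in acinar (29.4-fold) and the ubiquitin carrier Ube2c had a level of −1.95 in duct and 2.49 in acinar (21.7-fold). Of 6 mitotic genes with several probes, 5 were higher in acinar on every probe, and those of Mad2l1 opposed each other. Not all did so: the mitotic activator Cdc20 differed by 0.09 and the kinesin Kif20a by 0.44. Replication-coupled histone genes were included in a list with 22 of 40 higher in acinar and 3 in duct (median −1.15), in which H2bc14 had a level of 2.52 in duct and 6.24 in acinar (13.1-fold). Histone genes share much of their sequence, so their probes can bind more than 1 of them. Cell-cycle inhibitors had 6 of 18 higher in duct and 7 higher in acinar. Cdkn1b (p27) had a level of 3.69 in duct and 1.03 in acinar (6.34-fold) and Gadd45g had a level of −2.78 in duct and 3.08 in acinar (58.2-fold). Under normexp the numbers higher in duct and in acinar were 2 and 10 for histone genes (median −0.56) and 5 and 3 for cell-cycle inhibitors and p53 targets (median −0.10). Median scaling gave duct and acinar counts of 4 and 17 for S phase genes (median −1.18). Which group held more of the higher genes turned for cell-cycle inhibitors and p53 targets with median scaling and among genes over 4 times the 75th percentile.

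Duct functions made up the other side of the comparison. Of the ion and water transport genes 11 of 17 were higher in duct and 1 in acinar (median 2.46). Carbonic anhydrase 2 (Car2), which makes bicarbonate, had a level of 3.60 in duct and was not well above background in acinar (at least 50.1-fold). On the basolateral side, the bicarbonate importer Slc4a4 had a level of 3.68 in duct and −1.19 in acinar (29.3-fold), with 1 of its other probes at 0.85, and the sodium pump chain Atp1b1 had a level of 5.29 in duct and 0.22 in acinar (33.5-fold). Of 48 potassium channel genes 5 were higher in duct and 11 in acinar (median −0.04). Kcne3 had a level of 3.98 in duct and −0.67 in acinar (25-fold) with both probes higher, its partner Kcnq1 was 5.49-fold higher in duct and Kcnn4 15.0-fold, whereas Kcnj15 was at least 11.1-fold and Kcnd3 10.9-fold higher in acinar, where Kcnmb3 and Kcng2 were higher too. The chloride channel Ano1 had a level of 4.34 in duct and 1.97 in acinar (5.18-fold). The chloride-bicarbonate exchanger Slc26a6 went the other way on both probes and had a level of −0.12 in acinar and was not well above background in duct (at least 8.88-fold), and the basolateral carriers Slc4a2 and Slc12a2 differed by 0.06 and 0.34. Water channels divided between the cell types: Aqp1 had a level of 4.53 in duct and −0.67 in acinar (36.7-fold), whereas Aqp12 had a level of 5.29 in acinar and was not well above background in duct (at least 379-fold) and Aqp8 had a level of 2.06 in acinar and was not well above background in duct (at least 40.3-fold). After normexp background correction, duct and acinar counts were 6 and 2 for potassium channels (median 0.00). Duct and acinar counts with median scaling were 9 and 9 for potassium channels (median 0.00). The balance between the groups turned for potassium channels on the second-brightest probes and among genes over 4 times the 75th percentile. Under alternative settings, the 2-fold difference was lost for Kcnmb3 and Kcng2 with normexp background correction.

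Transcription factors of the duct were higher there for 13 of 20, with 4 lower (median 1.84). The epithelial ETS factor Ehf had a level of 5.66 in duct and 1.24 in acinar (21.4-fold) and the cilium factor Foxj1 had a level of 1.80 in duct and was not well above background in acinar (at least 14.4-fold). Every probe of Ehf, Glis3 and Foxa2 was higher in duct. Paralogues parted here too: Onecut2 was 4.42-fold higher in duct and Onecut1 6.06-fold higher in acinar, and Foxa1 at least 11.1-fold higher in duct and Foxa3 at least 92.3-fold higher in acinar. Pkhd1, which encodes the cilium protein fibrocystin, had a level of 2.60 in duct and was not well above background in acinar (at least 25-fold).

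On the surface, duct markers and secreted proteins were higher in duct for 20 of 31, with 4 lower. The tetraspanin Tspan8 had a level of 3.60 in duct and −0.95 in acinar (23.4-fold) and the polycystin Pkd2 had a level of 6.19 in duct and 2.59 in acinar (12.1-fold). Lower in duct were the trefoil gene Tff2, with a level of 4.78 in duct and 8.0 in acinar (9.33-fold), and the stem cell factor Kitl, 9.49-fold. Junction genes were higher in duct for 13 of 21, with 1 lower (median 1.5), with the adhesion receptor Nectin2 at least 15.6-fold higher on both probes and the adaptors Tjp3 and Tjp1 10.3-fold and 7.11-fold. Claudins, which set what a tight junction lets through, had no common direction: 5 of 14 were higher in duct, 4 higher in acinar and the median of 0.44 turned negative without the filter on dim probes. Cldn2, which forms a pore for cations and water, had a level of 3.83 in duct and was not well above background in acinar (at least 58.7-fold) with both probes higher, and Cldn10 had a level of 0.45 in duct and 3.11 in acinar (6.33-fold). Polarity genes were higher in duct for 11 of 19, with 1 lower. Llgl2, of the basolateral Scribble module, had a level of 4.09 in duct and −0.23 in acinar (20.1-fold) on its brightest probe and was higher on every probe, Scrib itself was 8.18-fold higher, and Cdc42 and Rab25 differed by −0.54 and −0.19. Genes of the primary cilium were higher in duct for 14 of 34, with 6 lower, with a median of 0.78 that turned slightly negative (−0.04) among genes that passed the background flag on both arrays. The kinesin Kif12 had a level of 4.91 in duct and −1.89 in acinar (111-fold) and the transport factor Ift20 had a level of 1.20 in duct and 3.12 in acinar (3.76-fold). With normexp background correction the counts higher in duct and in acinar became 6 and 1 for claudins (median 0.28) and 11 and 3 for the primary cilium (median 0.17). Which group held more of the higher genes turned for claudins without a filter.

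**Figure D4:**
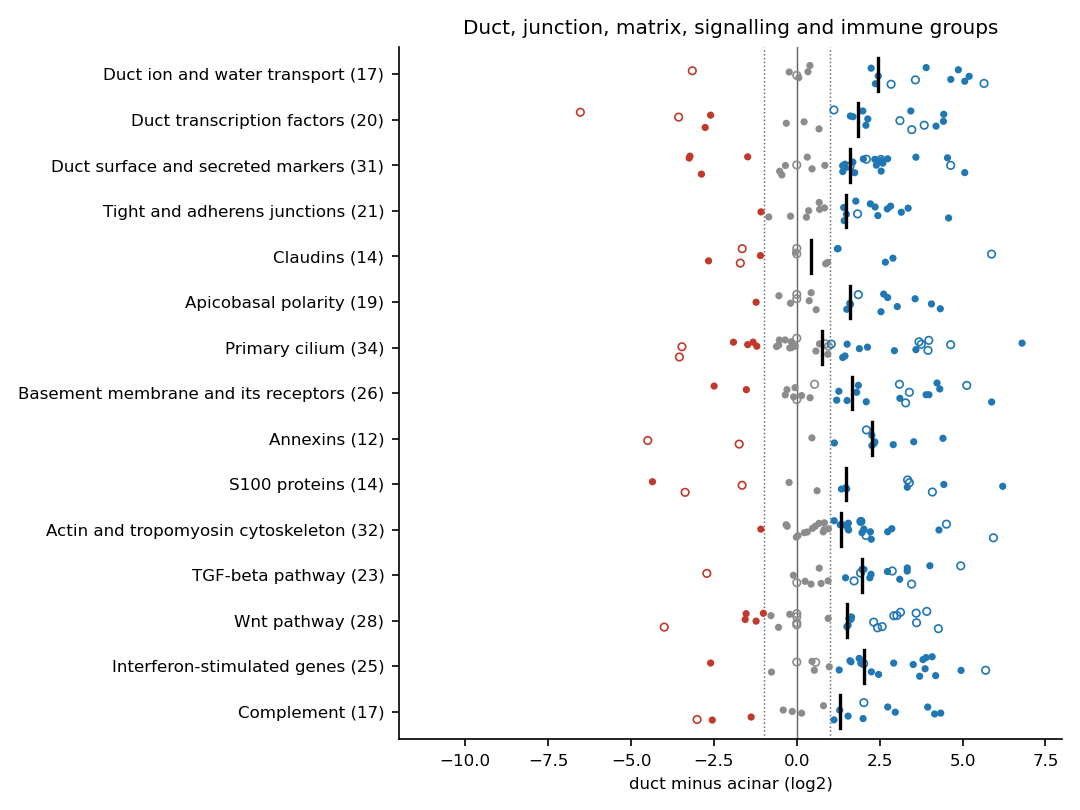
Difference of each gene between the arrays (x axis, duct minus acinar, log2 units) in 15 lists of duct, junction, matrix, signalling and immune genes, 1 point a gene and 1 array a group, with the number compared in brackets and a black bar at the median. Blue points are at least 2-fold higher in duct, red points at least 2-fold higher in acinar, grey points within 2-fold (dotted lines) and open points bounds; all 15 medians lie above 0, from 0.44 for claudins to 2.46 for ion transport, but those of claudins, primary cilium and the Wnt pathway turned negative under 1 or more alternatives.

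Basement membrane genes were higher in duct for 16 of 26, with 2 lower (median 1.66). Among laminin chains of epithelia, Lama3 had a level of 3.51 in duct and −0.39 in acinar (14.9-fold) with both probes higher, and Lamb3 was 3.5-fold higher. The wider laminin chains Lamb1 and Lamc1 were 18.8-fold and at least 34.9-fold higher, and the chains Lama4 and Col4a1 differed by −0.30 and −0.05. Agrn, a heparan sulphate proteoglycan, was 15.8-fold higher with every probe higher. Cytoskeletal genes were higher in duct for 18 of 32, with 1 lower. The filamin Flna (19.6-fold) and the myosin light chain Myl9 (at least 22.9-fold) were among the higher ones. Annexins, which bind membranes in the presence of calcium, were higher in duct for 9 of 12, with 2 lower (median 2.27). Anxa2 had a level of 4.74 in duct and 1.83 in acinar (7.51-fold), and its partner S100a10 had a level of 5.07 in duct and 0.63 in acinar (21.6-fold). Of the lower ones, Anxa10 had a level of 1.22 in acinar and was not well above background in duct (at least 22.6-fold). S100 proteins were higher in duct in 9 of 14, with S100a6 at 6.96 in duct and 0.74 in acinar (74.2-fold), and lower in 3, of which S100g was lower on both probes.

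Fibroblast markers were higher in duct for 16 of 22, with 2 lower, and endothelial markers for 5 of 11, with 1 lower. Smooth muscle and pericyte markers were higher in duct for 3 of 9, with 2 lower, a balance that turned among genes over 4 times the 75th percentile. The summed level of smooth muscle and pericyte markers was 828 in duct and 1820 in acinar. Collagen chains, many of them fibroblast products, were higher in duct for 16 of 30, with 5 lower, although their median of 1.24 turned negative without the filter on dim probes. Col16a1 had a level of 4.09 in duct and was not well above background in acinar (at least 70.2-fold) on its brightest probe but no difference on its dimmest, and Col5a1 had a level of 3.62 in duct and −1.75 in acinar (41.3-fold). The summed level of fibroblast markers was 442 in duct against 134 in acinar, that of endothelial markers 23.9 against 15.9, and Thy1, a fibroblast surface marker, had a level of 5.14 in duct and was not well above background in acinar (at least 146-fold). The part of such other cells in the matrix, cytoskeletal and signalling values was not tested. Integrin chains were higher in duct for 10 of 22, with 6 lower, with a median whose sign changed under 4 of the alternatives. Normexp background correction gave duct and acinar counts of 12 and 0 for collagen chains (median 0.30) and 6 and 3 for integrin chains (median 0.14). Scaled to medians, the arrays gave duct and acinar counts of 18 and 3 for collagen chains (median 1.63). The balance between the groups turned for integrin chains with a filter on both arrays, on the second-brightest probes, with a filter on all 3 arrays and among genes over 4 times the 75th percentile.

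Among signalling pathways, TGF-beta genes were higher in duct for 15 of 23, with 1 lower, with a median of 1.97 that fell to 0.00 on the second-brightest probes. Of the ligands, Tgfb3 had a level of 3.66 in duct and −0.36 in acinar (16.1-fold) and both probes of Tgfb2 were higher. Among receptors Bmpr1a was 10.1-fold higher, while the probes of Tgfbr1 and those of Tgfbr2 opposed each other. Of the downstream genes Smad7 was 8.60-fold higher and the matrix target Tgfbi had a level of 2.90 in duct and was not well above background in acinar (at least 30.8-fold). For the Wnt pathway 15 of 28 genes were higher in duct and 5 lower, and 27 were well above background in duct against 13 in acinar (96.4% and 46.4%, beside 93.8% and 77.8% of all genes compared). The feedback targets Axin2, Rnf43 and Znrf3 were all well above background in duct only (at least 12.2-fold, at least 8.74-fold and at least 5.97-fold). The receptor Fzd2 had a level of 2.23 in duct and was not well above background in acinar (at least 19.3-fold), higher on every probe. The median of 1.53 became −0.38 when only genes passing the background flag in both groups were kept, a filter that also moved the median of all genes to −0.17. Notch genes had no common direction, 7 of 22 higher in duct and 5 lower. The target Hes1 had a level of 2.82 in duct and −1.38 in acinar (18.4-fold) and the glycosyltransferase Lfng, which tunes Notch receptors, had a level of −3.05 in duct and 4.29 in acinar (162-fold). In the EGF family, Erbb3 had a level of 2.18 in duct and −1.54 in acinar (13.2-fold), and the ligands parted, with Hbegf at least 10.9-fold higher in duct and Egf at least 17.8-fold higher in acinar. Of the Hippo list 7 of 17 were higher in duct and 3 lower. The YAP target Amotl2 was 17.4-fold higher in duct and the partner Tead2 6.79-fold higher in acinar on both probes. The counts in duct and acinar moved with normexp to 11 and 1 for the Wnt pathway (median 0.62) and 3 and 1 for the Notch pathway (median 0.00). With median scaling they were 16 and 3 for the Wnt pathway (median 1.92). Which group held more of the higher genes turned for the Notch pathway and for TGF-beta genes on the second-brightest probes. A difference under 2-fold was obtained for Tgfbr1 and Tgfbr2 on the second-brightest probe, and Tgfbr1 and Tgfbr2 as a mean over probes, and Tgfbr2 with normexp background correction.

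Of 96 immune and injury genes 52 were higher in duct and 13 in acinar. Interferon-stimulated genes were higher in duct for 18 of 25, with 1 lower (median 2.02), and 3 of the 4 with several probes, Isg15, Ifih1 and Oas1a, were higher on every probe. The regulator Irf7 had a level of 3.65 in duct and was not well above background in acinar (at least 51.9-fold) and the translation inhibitor Ifit3 had a level of 5.79 in duct and 0.83 in acinar (31.0-fold). The interferon response element, GAAA repeated after 2 bases, was found on either strand in 10 of 25 windows of the list (40.0%), against 2.98% of all windows, 2.98% of windows of all genes higher in duct and 2.62% of those higher in acinar. The windows of Isg15, a ubiquitin-like modifier, at chr4:156200819-156200918 (minus strand) and of Ifit3 at chr19:34583359-34583528 (plus strand) are shown with the elements in capitals, which overlap in Isg15 and lie on the opposite strand in Ifit3.
Isg15: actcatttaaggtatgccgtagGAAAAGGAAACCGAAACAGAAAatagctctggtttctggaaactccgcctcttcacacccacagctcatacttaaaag
Ifit3: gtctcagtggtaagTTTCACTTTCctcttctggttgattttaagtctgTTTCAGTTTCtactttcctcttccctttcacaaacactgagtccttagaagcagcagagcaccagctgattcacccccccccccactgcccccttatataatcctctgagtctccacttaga
Isg15 had a level of 4.71 in duct and 1.0 in acinar (13.1-fold). Against this trend, Ifi35 had a level of −1.62 in duct and 0.98 in acinar (6.05-fold) and Bst2 differed by −0.76. Of 17 complement genes 10 were higher in duct and 3 in acinar. The alternative and classical pathway proteases Cfb and C2 were 15.4-fold and 20.3-fold higher, and the central component C3 had a level of 7.40 in duct and 4.43 in acinar (7.84-fold) with both probes higher. Higher in acinar were C1qa (5.85-fold) and C1qb, which macrophages make, and Cfd. Of MHC class II genes 5 of 7 were higher in duct, with the invariant chain Cd74 at 6.60 in duct and 3.90 in acinar (6.49-fold), while 6 of 15 MHC class I and antigen processing genes were and 1 was higher in acinar, with a median of 0.84 that turned negative on the second-brightest probes, and the class I chains H2-K1 (0.71) and B2m (0.52) lay within 2-fold. Markers of macrophages, which also make class II and complement proteins, had summed levels of 113 in duct and 135 in acinar, and their part in these values was not tested. Chemokines and NF-kB targets were higher in duct in 10 of 19 and higher in acinar in 0, led by Cxcl16 and Cx3cl1 (at least 27.3-fold and 16.3-fold). The 6 Reg genes compared were all higher in acinar, from −5.32 for Reg2 to −6.83 for Reg3a, and their probes may share family members. Under normexp the numbers higher in duct and in acinar were 11 and 1 for MHC class I and antigen processing (median 1.37) and 5 and 0 for chemokines and NF-kB targets (median 0.36). Among the named genes, the value came under 2-fold for C1qb with normexp background correction, and C1qb with median scaling.

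With no replicate arrays, different probes of a gene were set against each other. Besides the genes whose probes agreed or opposed each other, 2151 of 3195 were mixed. Agreement rose with signal. Where the dimmer of a gene's 2 brightest probes lay below the 75th percentile, the 2 differences correlated at r = 0.20 across 1496 genes. With the dimmer probe 1 to 4 times that percentile r was 0.30 (1036 genes), with 4 to 16 times 0.64 (451 genes) and above 16 times 0.88 (199 genes). Genes are not independent replicates, and the 2 probes share the array, the labelling and the scaling. Of genes whose brightest probe differed at least 2-fold, the second differed at least 2-fold the same way in 29.7%, 51.0%, 67.6% and 84.4% over these 4 classes, and at least 2-fold the opposite way in 16%, 22.8%, 9.02% and 1.30%. Agreement also rose with size: the second probe agreed for 39.3% of genes 2-fold to 4-fold apart and for 63.4% of those over 16-fold apart.

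**Figure D5:**
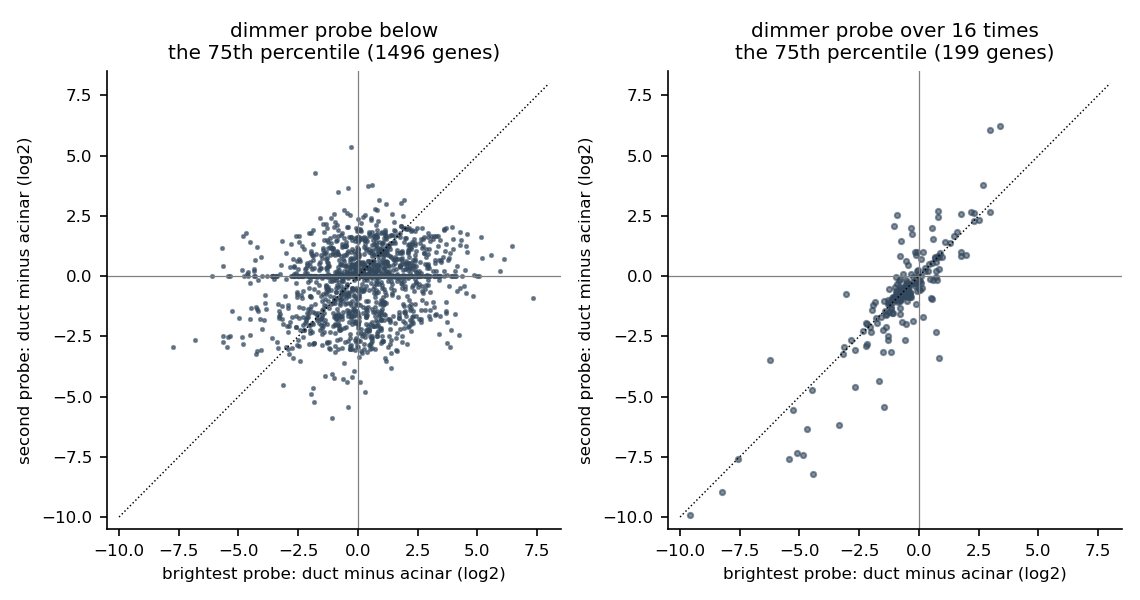
Difference between the arrays (duct minus acinar, log2 units) given by the brightest probe of a gene (x axis) and by its second-brightest probe (y axis), 1 point a gene and 1 array a group. On the left the dimmer probe lay below the 75th percentile (1496 genes, r = 0.20), on the right above 16 times that percentile (199 genes, r = 0.88), and the dotted line marks equal differences.

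Ranked by the smallest difference over their probes, the 10 genes most clearly higher in duct included Plet1, Ramp3, Kcne3, Me1, Tfcp2l1, Pdzk1ip1, Plcd3, Mtus2 and Nectin2, with smallest differences, bounds counted at their limit, between 30.8-fold and 15.6-fold. Plet1, a surface protein of epithelial progenitors, had a level of 6.18 in duct on its brightest probe and was not well above background in acinar, and its second probe had 3.17 and −1.77 (30.8-fold). Ramp3, which pairs with receptors for adrenomedullin, had 3.09 in duct and −1.74 in acinar on its brightest probe. Tfcp2l1, an epithelial transcription factor, was at least 20.0-fold higher on both probes. The 10 genes most clearly higher in acinar were Glp1r, Arhgdig, Sostdc1, Padi2, Slc7a5, Phgdh, Lbh, Serpina6, Itln1 and Ptger3, between 761-fold and 47.7-fold. Glp1r, the receptor of the incretin hormone GLP-1, had levels of −1.67 in duct and 7.90 in acinar on its brightest probe, and on the other 6.63 in acinar with no signal well above background in duct. Sostdc1, a secreted antagonist of BMP and Wnt, had 4.28 and 4.31 in acinar on its 2 probes and was not well above background in duct on either (at least 189-fold). Padi2, which converts arginine to citrulline in proteins, was at least 96.6-fold higher on both. In 10 of 10 genes of each direction the probes agreed by the rule that chose them, so that agreement is no further support.

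Large families that were not chosen for a cell type had members higher in each group. Among all genes compared, 27.4% were higher in duct and 24.6% in acinar. Of the Rab GTPases, which steer vesicles, 18 of 49 were higher in duct and 8 higher in acinar, with Rab12 14.3-fold higher in duct and Rab4b at least 40.5-fold higher in acinar. Nuclear receptors had 10 of 35 (28.6%) higher in each group, near the shares of all genes. Nr2f2 (COUP-TFII) had a level of 3.68 in duct and was not well above background in acinar (at least 52.9-fold), the bile acid receptor Nr1h4 had a level of 1.05 in duct and was not well above background in acinar (at least 8.54-fold), and Nr5a2, a receptor needed for acinar gene expression, had a level of −3.11 in duct and 2.18 in acinar (39.1-fold). Forkhead factors had 10 of 32 (31.2%) higher in duct and 12 (37.5%) higher in acinar. Foxo3 had a level of 0.55 in duct and 5.51 in acinar (31.2-fold). Of the Kruppel-like factors 6 of 13 were higher in duct and 4 lower, and both probes of Klf3 were higher in duct (23.3-fold on the brightest). Serpins, which inhibit proteases or carry ligands, had 8 of 28 (28.6%) higher in duct and 9 (32.1%) higher in acinar. Serpini2, a pancreatic serpin, had a level of 0.86 in duct and 7.44 in acinar (95.4-fold), the corticosteroid carrier Serpina6 had a level of −2.12 in duct and 3.88 in acinar (64.2-fold), and the intracellular Serpinb6b had a level of 4.23 in duct and 0.33 in acinar (15.0-fold). Both probes of Serpinf1 and of Serping1 were higher in duct. After normexp background correction, duct and acinar counts were 10 and 6 for nuclear receptors (median 0.18), 5 and 5 for forkhead factors (median −0.20), 5 and 1 for Kruppel-like factors (median 0.34) and 7 and 4 for serpins (median 0.00). The balance between the groups turned for Rab GTPases on the second-brightest probes, and for forkhead factors with median scaling and on the second-brightest probes, and for serpins with median scaling, with a filter on both arrays, on the second-brightest probes, with a filter on all 3 arrays and among genes over 4 times the 75th percentile.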

How the data were processed

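The deposited scanner tables of the authors hold spot intensity on a linear scale, with flags of 0 or 1 (other values) for outliers, saturation and signal well above background. Background subtraction and detrending within each array were done in Agilent Feature Extraction 11.5.1.1, per the file headers, and arrays were not scaled to each other. Per the labels' protocols, amplification by Ovation Pico WTA started from 1.181 ng of total RNA, and 2.0 µg of cDNA received the Cy3 label. The deposited value table of the authors holds log2 values of 32939 probes. It differed from the log2 processed signal by a constant per array (−6.58 duct, −5.13 acinar) to within 0.001 in all 32905 probes set against it, so neither sign nor gene centring had been altered. The medians of its columns were −0.63 and −0.57, and what selected its probes is unstated in the sources used here.

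Control spots (3671 of 62976 an array) were left out, as were outlier spots (110 duct, 115 acinar). No spot was saturated. The log2 processed signals of repeated spots were averaged, and the array's 75th percentile over 55664 probes was subtracted. Repeated spots had a median SD of 0.0931 in duct (234 probes) and 0.13 in acinar (182 probes), which covers spotting and scanning only, while precision is limited by the number of arrays. The arrays share 1 slide and scan day.

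Probes were named by unversioned accession from RefSeq genes of GRCm38.p6, which gave 28020 probes with 1 symbol, 0 with several, 27644 unnamed here, and 21150 genes. Probes were annotated on mm9, so the table gave names only. The probe with the highest mean over all 3 arrays of the series stood for a gene. Bounds that crossed 0 were taken as 0. The 97 gene lists (2585 genes on the array) came from textbook knowledge and symbol patterns, and the members and lists were chosen with earlier results of these data known. Named genes are the 10 largest differences each way among genes whose probes all agree at 2-fold, the 4 members of a list furthest from 0 each way, any member of a list of up to 30 genes where the text follows it by role, and the label-check markers. Promoter windows were RefSeq sequences of GRCm38.p6, found for 10972 of the genes compared, with 250 bases before the start searched on both strands. The motifs are consensus sites from textbook knowledge, chosen with the same results known. Some results are not reported here. Analyses used Python 3.11.15, numpy 2.4.6, pandas 2.3.3, R 4.3.3 and limma 3.58.1 (normexp, offset 50). The counting was tested on simulated differences.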

Additional observations from a re-analysis of the deposited data

How the results depend on the processing

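With 1 array a group, no alternative adds a replicate. No paired analysis was possible because each group has 1 array and no replicate number. Genes higher in acinar fell to 1501 with normexp background correction, run on the median spot signal, and genes with every probe agreed to 195 in duct and 129 in acinar; of 7173 calls that could be compared, 3914 were kept and 13 turned. A filter on both arrays gave 2353 genes higher in duct and 159 and 227 agreed, one on all 3 arrays 2298, 155 and 212. No filter gave 8829 higher in acinar and 1196 agreed there. The second-brightest probe gave 788 in duct and 950 in acinar of 3222 genes, with 280 of 1689 calls turned, and genes over 4 times the 75th percentile 1592 and 1234 of 4935. Of the genes past 2-fold, 65.7% were higher in duct with normexp and 34.9% without a filter. A count of a list moved by over 1.5 times in 53 of 97 lists with normexp and in 22 with median scaling. Of 97 lists 40 had a median at least 2-fold from 0, of which 35 kept its sign under all 11 alternatives and 17 stayed 2-fold. List medians turned to −0.382 for the Wnt pathway (both-array and 3-array filters), −0.088 for collagen chains (no filter) and −0.158 for nerve and Schwann cell markers (second-brightest probe). The cause was not tested. The filter on 3 arrays, the probe choice on 2 arrays and the bright genes were chosen after seeing the data. Naming unmatched probes from a gene name column was not run, since the scanner columns used here hold none.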

Other observations

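Probes without a gene name here leaned towards acinar more than named ones. Among 12509 such members, 2-fold was passed towards duct by 1457 (11.6%) and towards acinar by 3876 (31.0%), with a median of −0.36, against 26.6% and 25.6% of 17664 named members and a median of 0.00. Of the 6996 of them annotated only by a chromosome region, 11.6% were higher in duct and 32.7% in acinar. The cause was not tested.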
